A study of Apis mellifera with 138 samples.

Results

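The brains described here came from worker honey bees (Apis mellifera) of colony R3 that were fed antagomir-305-5p (antag-305) or a missense antagomir (antag-missense). All were workers of a colony headed by a queen inseminated by a single drone. At 3 days of age they were fed 1000 pmol of the construct in sucrose solution, after which they were caged singly for 48 h, so that they were 5 days old at collection. Whole brains were dissected without the hypopharyngeal glands, and each RNA-seq library held the brain of 1 bee. Libraries entered where bee virus genomes took at most 0.5% of all counts, which kept 23 of the 24 R3 brain libraries and 23 of the 138 libraries in the series. They comprised 12 antag-305 and 11 antag-missense libraries, and only bee genes were examined. The library left out, antag-missense bee 21, had 47.7% viral counts, whereas the highest share kept was 0.0224% (Wilson 95% interval 0.0216 to 0.0233%, counting error only) in antag-305 bee 23. The series also holds brains of colonies R2 and R42 and the abdominal fat body of all 3 colonies. Each colony was a trial of its own, and effects of the colony cannot be told apart from those of its trial. No bees fed sucrose alone were used, and every difference below is between bees fed 1 of the 2 oligonucleotides.

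An antagomir is a chemically modified antisense oligonucleotide that pairs with a mature microRNA and blocks it, and the missense construct serves as the control oligonucleotide. MicroRNAs guide silencing complexes to messenger RNAs and lower their stability or translation. Several gene groups in the results have well-known roles. Heat shock proteins fold nascent and damaged proteins and are induced by protein-folding stress. Immediate-early genes are induced in neurons by electrical activity, and octopamine, dopamine and serotonin act in the bee brain through G protein-coupled receptors linked to foraging, reward and aggression.

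Bee gene counts per library were 12271709 to 25187806 (median 17774894) in antag-305 brains and 9073661 to 26301668 (median 14760762) in antag-missense brains, a difference that did not pass a permutation test (P=0.166, two-sided, 100000 resamples). Levels are given as CPM, the gene's counts relative to the library total after trimmed mean of M-values (TMM) scaling. The libraries carried the markers of brain: summed CPM of 5 neuron markers was 8769 to 12360 in antag-305 and 10390 to 12050 in antag-missense brains, and none of the 5 was at 0. Markers of other tissues were present at lower sums than the neuron markers, and varied widely between brains. The sum over 7 hypopharyngeal gland markers was 86.5 to 1441 CPM (median 337) in antag-305 and 85.2 to 942 CPM (median 277) in antag-missense brains. Over 4 photoreceptor opsins the sum was 74.6 to 3193 CPM (median 140) against 62.3 to 877 CPM (median 110), and over 5 fat body markers it was 9.45 to 56.0 CPM (median 17.8) against 8.68 to 26.7 CPM (median 13.03), in antag-305 and antag-missense brains in each case. Log2 fold changes were 0.70 to 0.96 for the 3 opsins tested and −1.14 to 0.93 for the 7 gland markers. They were 0.19 to 1.235 for the 4 fat body markers tested and −0.09 to 0.09 for the 5 neuron markers. No marker gene was a DEG, and the part of these tissues in the results was not tested. The hairpin of miR-305 (Mir305, chromosome 4, 11143351-11143440) had 0 counts in all 138 libraries. Libraries of messenger RNA do not capture mature microRNAs, and these hold no measure of the knockdown. By RT-qPCR, the paper reported the microRNA reduced in fat body in most trials and unchanged in the brains it measured. The long noncoding RNA that spans the hairpin, LOC102655676, lay below the expression filter with medians of 0.53 and 0.67 CPM in antag-305 and antag-missense brains.

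The libraries differed along gene length. Genes were cut into 4 bins of 2279 or 2280 by their span, and for each library the mean centred log2 level of the shortest bin was subtracted from that of the longest. This length measure averaged 0.13 ± 0.19 in antag-305 and −0.14 ± 0.31 in antag-missense brains (SD, n=12 and 11), a difference of 0.27 (permutation test, P=0.0223, BH-adjusted over 3 library measures 0.0350). The share of counts from mitochondrially encoded genes averaged 1.395 ± 0.195% in antag-305 and 1.722 ± 0.431% in antag-missense brains (permutation test, P=0.0234, adjusted 0.0350). Within antag-305, bees 21 to 24 stood apart from bees 13 to 20, with length measures of −0.14 to −0.07 against 0.12 to 0.36. These 4 libraries, and antag-missense bees 13 and 15, which had the lowest length measures, were singled out after their values had been seen, on a measure that itself differed between treatments. Counts of DEGs are therefore given with and without bees 21 to 24. Most named genes described below whose call was lost with these 4 as the only antag-305 brains are given with the value of that fit. It holds 4 antag-305 brains in place of 12, so a call lost in it does not show that the response was absent in these bees.

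**Figure D1:**
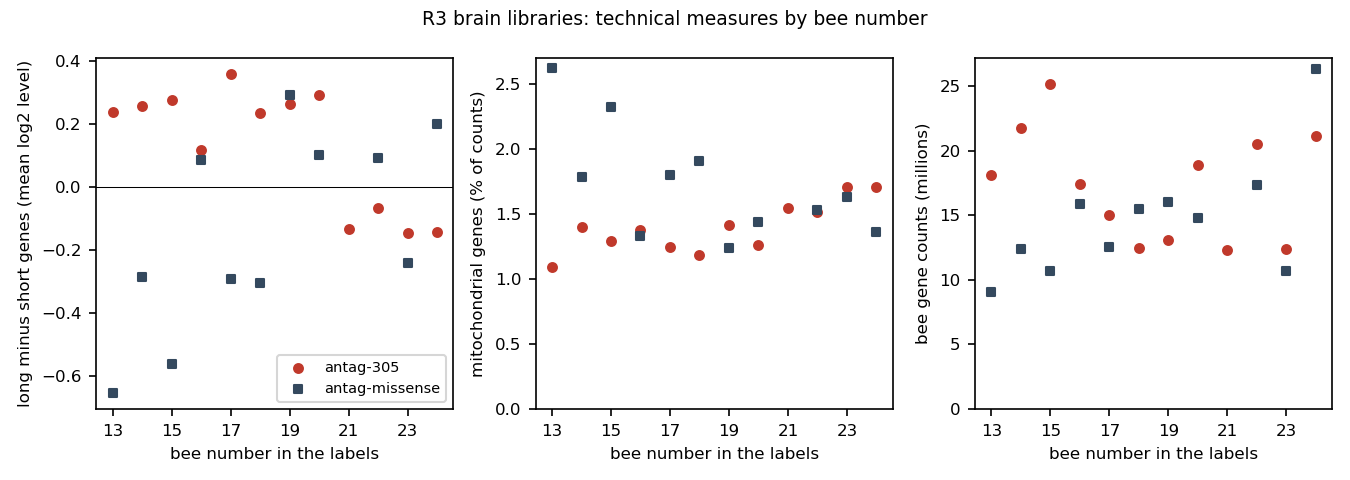
Measures of each R3 brain library against the bee number in the labels: the length measure (left, mean log2 level of long minus short genes), the share of counts from mitochondrial genes (centre, %) and bee gene counts (right). Circles are the 12 antag-305 libraries and squares the 11 antag-missense libraries. Antag-305 bees 21 to 24 sit below 0 on the length measure, between −0.14 and −0.07, and bees 13 to 20 sit between 0.12 and 0.36.

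Of 9118 genes tested with edgeR's quasi-likelihood test, 404 (4.43%) were differentially expressed between antag-305 and antag-missense brains at a Benjamini–Hochberg false discovery rate (FDR) below 0.05. There were 293 upregulated DEGs (3.21% of genes tested) and 111 downregulated DEGs (1.22%), against 2282 genes with an unadjusted P below 0.05. Log2 fold changes were above 0 for 47.2% of all genes tested. Most changes were modest. The upregulated DEGs had a median log2 fold change of 0.43 (range 0.12 to 2.41), with 25 above 1, and the downregulated DEGs had a median of −0.36 (range −1.13 to −0.14), with 3 below −1. Upregulated DEGs included 20 long noncoding RNAs and downregulated DEGs 4. In 22 genes (0.241%) every antag-305 brain was above every antag-missense brain, and in 1 gene (0.011%) every antag-305 brain was below. The number of DEGs depended on which antag-305 bees were included. Without bees 21 to 24 there were 1239 upregulated and 1583 downregulated DEGs, among them 401 of the 404. With bees 21 to 24 as the only antag-305 brains there were 73 and 7, and 62 of the 404 were among them. Of 47 DEGs named by rule, all 47 were also DEGs without bees 21 to 24, 41 were without antag-missense bees 13 and 15, and 18 were with bees 21 to 24 as the only antag-305 brains, where the other 29 kept their sign. Bees 21 to 24 were singled out on a measure that differed between treatments, so calls kept without them are no separate check. Downregulated DEGs also shifted with single antag-missense bees, to 72 without bee 15, 211 without bee 19 and 169 without bee 24.

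Heat shock proteins and their partners were upregulated together. Of 22 genes matched by name as chaperones, 16 were upregulated and none was downregulated, with a median log2 fold change of 0.37 against −0.01 over all genes tested. The names came from the study's own list of brain DEGs, which was drawn in part from these libraries, so this count is not independent evidence of direction. Of 5 chaperones listed by symbol, 4 were upregulated and none was downregulated (median 0.75). Of all genes tested, 3.21% were upregulated. The list by symbol is not a separate check, since it shares members with those by name, such as Hsc70-3 below. Hsp90 (chromosome 7, 9550759-9553976), the chaperone that matures kinases and steroid hormone receptors, had the smallest P of all genes. Its level was 4179 to 8040 CPM (median 6029) in antag-305 brains, against 2217 to 3130 CPM (median 2510) in antag-missense brains. The groups did not overlap, and the log2 fold change was 1.18 ± 0.10 (SE; FDR=6.56e-08). Hsc70-4, the main constitutive Hsp70 of the cytosol, had 3108 to 7126 CPM (median 4923) in antag-305 brains, against 1638 to 3420 CPM (median 2342) in antag-missense brains. In 11 of 12 antag-305 brains it was above every antag-missense brain (log2 fold change 1.03 ± 0.13, FDR=3.04e-05). The stress-inducible LOC410620 (Hsp70Ab-like) spread most widely, at 342 to 2108 CPM (median 1582) in antag-305 brains against 203 to 691 CPM (median 371) in antag-missense brains. Its groups overlapped in 2 antag-305 bees, and its log2 fold change was 1.77 ± 0.25 (FDR=6.22e-05). Hsp70 genes are closely similar in sequence, so that reads could be split between copies in counting.

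Other folding genes moved in the same direction. LOC409384 (heat shock protein 60A, the mitochondrial chaperonin) had a log2 fold change of 0.90 ± 0.12, LOC411071 (dnaJ protein homolog 1, an Hsp40) of 0.81 ± 0.12 and LOC408706 (heat shock 70 kDa protein 4, a nucleotide exchange factor of Hsp70) of 0.83 ± 0.10. Several cochaperones of Hsp90 were among the upregulated DEGs. LOC412067, which encodes a CHORD-domain cochaperone, had 60.5 to 92.0 CPM (median 76.9) in antag-305 brains against 41.7 to 55.6 CPM (median 48.4) in antag-missense brains, without overlap (0.66 ± 0.07, FDR=3.55e-06). LOC102656934 (stress-induced-phosphoprotein 1, which joins Hsp70 to Hsp90) rose by 0.82 ± 0.10 and LOC551720 (the Hsp90 ATPase activator Aha1) by 0.62 ± 0.12 on the log2 scale, whereas Cdc37, which brings kinases to Hsp90, was at 0.34 (FDR=0.234). Of the subunits of the cytosolic chaperonin on the list, delta, epsilon (LOC409825, 0.38), eta (LOC550694, 0.19) and gamma (LOC409296, 0.19) were upregulated and beta (LOC409809, 0.21, FDR=0.179) did not pass. LOC551275 (T-complex protein 1 subunit delta) had 111 to 129 CPM (median 123) in antag-305 brains against 99.8 to 113 CPM (median 105) in antag-missense brains, with a log2 fold change of 0.22 ± 0.04 (FDR=0.000349), and with bees 21 to 24 as the only antag-305 brains it was at 0.20 (FDR=0.137). Among the members that were not DEGs, a pair matched by name are not general folding factors: the proteasome assembly chaperone LOC552102 (−0.49, FDR=0.0781) and the cytochrome c oxidase copper chaperone LOC727026 (−1.04, FDR=0.155).

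All 4 genes of protein folding in the endoplasmic reticulum were upregulated (median 0.67), these too matched by name. Endoplasmin (LOC412150), the Hsp90 of this compartment, had 204 to 303 CPM (median 277) in antag-305 brains, against 156 to 208 CPM (median 170) in antag-missense brains. All but 1 antag-305 brain lay above the antag-missense range (0.62 ± 0.07, FDR=3.73e-06). Hsc70-3, the luminal Hsp70 known as BiP, rose by 0.75 ± 0.09 and LOC409165 (calreticulin, a lectin chaperone) by 0.25 ± 0.05 on the log2 scale. LOC408853 encodes X-box-binding protein 1, the transcription factor of the unfolded protein response. It had 147 to 277 CPM (median 255) in antag-305 brains, against 99.5 to 194 CPM (median 144) in antag-missense brains (0.71 ± 0.12, FDR=0.000356). With bees 21 to 24 as the only antag-305 brains, 11 of the 22 chaperones matched by name were upregulated and none was downregulated, and without these bees 18 were upregulated and 3 downregulated.

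**Figure D2:**
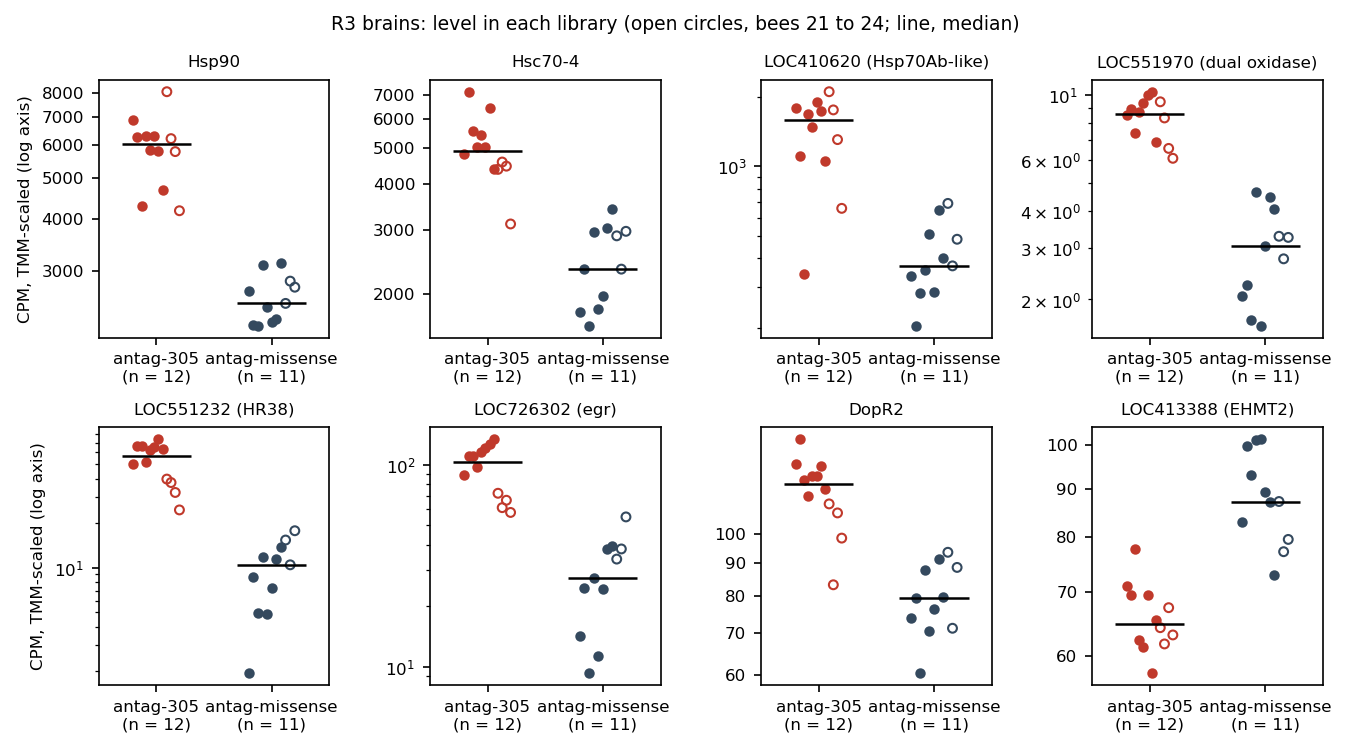
Level of 8 genes in each R3 brain, in TMM-scaled CPM on log axes, with antag-305 (n=12) left of antag-missense (n=11). Each circle is 1 bee, open circles are bees 21 to 24 of either group, and lines are medians. Hsp90 does not overlap between groups (4179 to 8040 against 2217 to 3130 CPM), and for LOC551232 (HR38) and LOC726302 (egr) the open antag-305 circles lie between the other antag-305 bees and the antag-missense bees.

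The genes with the largest log2 fold changes included 2 transcription factors of the immediate-early class. LOC551232 (chromosome 13, 5711443-5719422) encodes HR38, the insect member of the NR4A nuclear receptors, which is induced by neuronal activity. It had 24.6 to 74.02 CPM (median 57.2) in antag-305 brains, against 1.94 to 17.8 CPM (median 10.5) in antag-missense brains. The groups did not overlap, and the log2 fold change of 2.41 ± 0.27 was the highest among the 9118 genes (FDR=3.73e-06). LOC726302, called egr in the study after the early growth response factors, had 58.0 to 134 CPM (median 104) in antag-305 brains, against 9.27 to 55.1 CPM (median 27.6) in antag-missense brains (1.74 ± 0.24, FDR=6.25e-05). Both genes split the antag-305 bees. HR38 was at 24.6 to 39.7 CPM in bees 21 to 24 and at 50.4 to 74.02 CPM in bees 13 to 20, and egr was at 58.0 to 72.2 CPM and 88.8 to 134 CPM in the same bees. Against antag-missense brains, bees 21 to 24 alone gave log2 fold changes of 1.74 for HR38 (FDR=0.021) and 1.15 for egr (FDR=0.17), so that egr was not called from these 4 bees alone.

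Activity-linked genes were matched by name within the study's own list of brain DEGs, drawn in part from these libraries. Their count is therefore not independent evidence of direction. Log2 fold changes of 8 such genes ranged from −0.35 to 2.41 (median 0.44), with 7 above 0. Of the 8, 4 were upregulated, against 3.21% of all genes tested, and none was downregulated. The others were LOC410326 (Krueppel-like factor 10), with 50.5 to 119 CPM (median 79.2) in antag-305 brains against 25.1 to 59.4 CPM (median 46.3) in antag-missense brains (0.83 ± 0.15, FDR=0.000872), and LOC408844. LOC408844 encodes dual specificity phosphatase 10, whose fly relative puckered switches off the stress kinase JNK. It had 119 to 144 CPM (median 129) in antag-305 brains and 54.6 to 107 CPM (median 82.7) in antag-missense brains, without overlap (0.62 ± 0.09, FDR=5.93e-05). LOC726289 (transcription factor AP-1, the Jun partner of Fos) was not a DEG, with a log2 fold change of 0.22 ± 0.14 (FDR=0.305).

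Among the 35 transcription factors (TFs) that the study listed as brain DEGs, 25 were upregulated in colony R3 and none was downregulated (median 0.37). Of all genes tested, 3.21% were upregulated. The list was chosen on libraries that included these, so its direction is not independent evidence. The DEGs included LOC411207 (slbo, the bee C/EBP; 0.39 ± 0.08, FDR=0.00501), LOC409401 (Creb, the cAMP-responsive factor of memory formation; 0.45 ± 0.10, FDR=0.00545) and LOC726204 (cwo, the clock repressor clockwork orange; 0.51 ± 0.11, FDR=0.00616). Values for Creb were 35.8 to 62.1 CPM (median 42.3) in antag-305 brains and 26.8 to 38.0 CPM (median 33.6) in antag-missense brains, so that the groups overlapped narrowly. The repressor hairy, which acts in segmentation and downstream of Notch, is represented by LOC410468 (0.36 ± 0.08, FDR=0.00868) and by LOC724914 (0.74 ± 0.17, FDR=0.00984). LOC410468 lies within the span of LOC102655449 on the opposite strand, which was not called (−0.25). Suppressor of hairless (LOC413870), the DNA-binding factor of Notch signalling, rose by 0.23 ± 0.07 on the log2 scale (FDR=0.0486). The ligand Delta (LOC410351) was at 0.15 (FDR=0.156) and enhancer of split m7 (LOC409822) at 0.28 (FDR=0.291). Of 8 genes matched by name to the Notch pathway, again within the study's brain DEGs, 5 were upregulated and none was downregulated (median 0.24). However, LOC551275, LOC551500 and LOC552000, of which the first 2 were DEGs, were matched through the word delta. They are a chaperonin subunit, a phosphoinositide kinase and a fatty acid enzyme. Of the 8 genes, 0 were DEGs with bees 21 to 24 as the only antag-305 brains. With the length measure as a covariate 2 were upregulated, and without bees 21 to 24 5 were upregulated and 1 downregulated. Of the 35, 12 were upregulated with the length measure as a covariate, 2 with bees 21 to 24 as the only antag-305 brains and 33 without these bees. From bees 21 to 24 alone slbo (0.44, FDR=0.104), Creb (0.26, FDR=0.393), cwo (0.41, FDR=0.434) and LOC410468 (0.30, FDR=0.434) were not called. For slbo the log2 fold change was no smaller in this fit of fewer bees, and its SE was 0.12 against 0.08.

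A few biogenic amine receptors were upregulated, by smaller amounts. Of 9 receptors listed by symbol 2 were upregulated, against 3.21% of all genes tested, and none was downregulated (median 0.25). Of 8 matched by name 3 were upregulated, but these names came from the study's list of brain DEGs, drawn in part from these libraries. The lists share members, DopR2 among them, so the second count is not independent evidence. The dopamine receptor DopR2, which couples to cAMP and calcium, had 83.3 to 141 CPM (median 120) in antag-305 brains, against 60.4 to 93.7 CPM (median 79.4) in antag-missense brains. All but 1 antag-305 brain lay above the antag-missense range (0.56 ± 0.08, FDR=8.45e-05). The octopamine receptor beta-3R (LOC412994) had 114 to 175 CPM (median 158) in antag-305 brains, against 71.1 to 139 CPM (median 107) in antag-missense brains (0.50 ± 0.11, FDR=0.00823), and the serotonin receptor 5-HT2alpha rose by 0.37 ± 0.08 (FDR=0.00881). Other receptors had positive values that did not pass. They were 0.33 for Dop3 (FDR=0.0557), 0.22 for Dop1 (FDR=0.0563), 0.25 for the octopamine receptor Oa1 (FDR=0.0671), 0.26 for octopamine beta-1R (LOC413698, FDR=0.113) and 0.26 for 5-HT1 (FDR=0.225). For 5-ht7 (−0.05), 5-HT2beta (0.04), TyrR (−0.02) and octopamine beta-2R (LOC412896, 0.10) the log2 fold changes were near 0. In DopR2, bees 21 to 24 had 83.3 to 112 CPM and bees 13 to 20 had 115 to 141 CPM. With bees 21 to 24 as the only antag-305 brains no amine receptor was a DEG (DopR2 0.33, FDR=0.248, octopamine beta-3R, LOC412994, 0.24, FDR=0.708, and 5-HT2alpha 0.10, FDR=0.846), and with the length measure as a covariate 1 of the 9 and 2 of the 8 were.

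Some genes of the hormone and nutrient pathways passed the test. Of 14 hormone pathway genes 2 were upregulated, against 3.21% of all genes tested, and none was downregulated (median 0.15). Usp (ultraspiracle), the partner of the ecdysone receptor, had 210 to 264 CPM (median 231) in antag-305 brains, against 163 to 231 CPM (median 189) in antag-missense brains (0.26 ± 0.06, FDR=0.0132), a call that was lost with the length measure as a covariate and with bees 21 to 24 as the only antag-305 brains (0.15, FDR=0.653). The insulin receptor InR-2 had 11.9 to 48.1 CPM (median 25.4) in antag-305 brains, against 5.24 to 25.1 CPM (median 11.8) in antag-missense brains, close to the threshold (0.96 ± 0.28, FDR=0.0484). The juvenile hormone response gene Kr-h1 overlapped fully, at 12.95 to 75.4 CPM (median 29.3) in antag-305 and 22.2 to 59.9 CPM (median 46.6) in antag-missense brains (−0.22 ± 0.23, FDR=0.529). The yolk protein precursor Vg was at 0.46 to 21.5 CPM (median 2.002) against 0.23 to 10.1 CPM (median 1.50) in the same order (1.18 ± 0.65, FDR=0.248). A subunit of TOR complex 2 and a trehalose enzyme passed with smaller P. LOC413223 (rictor, which defines that complex) had 72.3 to 110 CPM (median 97.6) in antag-305 brains and 44.6 to 75.2 CPM (median 63.8) in antag-missense brains (0.59 ± 0.09, FDR=0.00014). With bees 21 to 24 as the only antag-305 brains rictor was at 0.35 and was not called (FDR=0.33). LOC408867 (trehalose-phosphate synthase, which makes the main blood sugar of insects) had 214 to 344 CPM (median 289) in antag-305 brains and 155 to 219 CPM (median 189) in antag-missense brains (0.56 ± 0.07, FDR=3.04e-05). Both LOC408867 and Usp overlap genes on the opposite strand, and whether the counting used strand is not given in the sources used here. Among those that Usp overlaps, LOC102653672 was itself upregulated (0.43).

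Groups also did not overlap in several genes of other functions. LOC413736 (salt-inducible kinase SIK2, which in other animals restrains CREB coactivators) had 110.5 to 167 CPM (median 140) in antag-305 brains, against 62.2 to 98.1 CPM (median 80.4) in antag-missense brains (0.76 ± 0.07, FDR=4.64e-07). LOC551970 (dual oxidase, which makes hydrogen peroxide at the cell surface) had 6.07 to 10.2 CPM (median 8.62) in antag-305 brains, against 1.62 to 4.67 CPM (median 3.04) in antag-missense brains (1.45 ± 0.16, FDR=3.73e-06). LOC409664, named erythroid differentiation-related factor 1, had 82.9 to 140 CPM (median 130) in antag-305 brains, against 39.9 to 64.8 CPM (median 54.1) in antag-missense brains (1.16 ± 0.10, FDR=8.66e-08). Its span (5988608-5993569) overlaps in part that of LOC412907 (5985153-5989339) on the opposite strand, whose log2 fold change of 1.31 was not called. Reads in the stretch that the pair shares cannot be told apart without strand. The long noncoding RNA LOC107966102 had 583 to 1315 CPM (median 1002) in antag-305 brains, against 239 to 560.5 CPM (median 326) in antag-missense brains (1.34 ± 0.15, FDR=4.09e-06).

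Some upregulated genes that are not named in the sources used here had large log2 fold changes. LOC724367 had 43.1 to 472 CPM (median 343) in antag-305 brains against 36.8 to 170 CPM (median 73.8) in antag-missense brains (1.77 ± 0.32, FDR=0.00104). LOC412197 had 145 to 852 CPM (median 672) against 105 to 292 CPM (median 177) in the same order (1.68 ± 0.26, FDR=0.000166). In both genes the lowest antag-305 bees fell within the antag-missense range, as for LOC410620. LOC100576381 did not overlap, at 66.4 to 158 CPM (median 128) in antag-305 and 46.8 to 60.3 CPM (median 53.6) in antag-missense brains (1.18 ± 0.13, FDR=3.55e-06). LOC724752 (TRIM71, an E3 ubiquitin ligase of the family of fly wech) had 8.03 to 16.7 CPM (median 10.9) in antag-305 brains, against 3.25 to 8.85 CPM (median 6.09) in antag-missense brains (0.91 ± 0.15, FDR=0.000375), a call lost with bees 21 to 24 as the only antag-305 brains (0.62, FDR=0.247). Of the small RNA pathway, LOC414009 (DGCR8, pasha in flies, the partner of Drosha in cutting microRNA precursors) rose by 0.42 ± 0.12 (FDR=0.0374), a call that was lost when single libraries were left out, without antag-missense bees 13 and 15 (0.35, FDR=0.111) and with bees 21 to 24 as the only antag-305 brains (0.34, FDR=0.557), and Dcr-1, which cuts the hairpins, was at −0.06 ± 0.06 (FDR=0.514).

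Downregulated DEGs were fewer than upregulated DEGs and had a smaller median change. LOC413388 encodes EHMT2 (G9a), which methylates histone H3 at lysine 9 in silenced chromatin. It had 57.6 to 77.8 CPM (median 64.9) in antag-305 brains, against 73.1 to 101 CPM (median 87.2) in antag-missense brains, and 11 of 12 antag-305 brains lay below the antag-missense range (−0.42 ± 0.06, FDR=8.45e-05). The gene with complete separation was LOC551349 (BCL9, legless in flies, a coactivator of Wnt signalling), at 79.1 to 105 CPM (median 92.4) in antag-305 brains and 106 to 135 CPM (median 111) in antag-missense brains (−0.30 ± 0.05, FDR=0.000522), and with bees 21 to 24 as the only antag-305 brains it was at −0.33 and narrowly missed the threshold (FDR=0.0555). LOC409346 (TBC1 domain family member 1, a Rab GTPase-activating protein) had 93.6 to 154 CPM (median 114) in antag-305 brains, against 130 to 211 CPM (median 168) in antag-missense brains (−0.49 ± 0.08, FDR=0.000441). The groups overlapped between 130 and 154 CPM for this gene.

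The largest log2 decrease among the DEGs was that of LOC100577833, which is not named in the sources used here. It had 18.6 to 60.2 CPM (median 34.6) in antag-305 brains, against 44.4 to 98.7 CPM (median 69.8) in antag-missense brains (−1.13 ± 0.17, FDR=0.000157). LOC100578286, also without a name there, had 10.2 to 18.1 CPM (median 13.4) in antag-305 brains, against 17.5 to 26.6 CPM (median 19.9) in antag-missense brains (−0.62 ± 0.09, FDR=0.00011). With bees 21 to 24 as the only antag-305 brains neither was called, at −0.88 (FDR=0.0885) and −0.50 (FDR=0.149). Of the ion channels matched by name, LOC412524 (CRAC channel protein 1, Orai, the pore of store-operated calcium entry) fell by 0.33 ± 0.09 on the log2 scale (FDR=0.0289). That call was lost when single libraries were left out, without antag-missense bees 13 and 15 (−0.21, FDR=0.0822) and with bees 21 to 24 as the only antag-305 brains (−0.36, FDR=0.383).

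Lists of housekeeping genes had medians below 0 without any DEG. Matched by name, the median log2 fold change was −0.54 over 19 cytosolic ribosomal protein genes, −0.44 over 20 mitochondrial ribosomal protein genes, −0.49 over 11 proteasome genes and −0.545 over 22 nuclear genes of the respiratory chain, against −0.01 over all genes. These names came from the study's list of brain DEGs, so the medians are not independent evidence of direction. Listed by symbol, the median was −0.27 over 7 cytosolic ribosomal protein genes, −0.42 over 8 nuclear genes of the respiratory chain and −0.77 over 11 genes encoded by mitochondrial DNA. None of them passed edgeR's test in either direction, although 14, 18, 9 and 20 genes of the lists by name and 1, 5 and 4 of those by symbol had an unadjusted P below 0.05, and with DESeq2 1 mitochondrial ribosomal protein gene and 1 proteasome gene were downregulated. The mitochondrial gene ND6, a complex I subunit, had 5.16 to 77.3 CPM (median 11.1) in antag-305 brains and 5.26 to 349 CPM (median 28.8) in antag-missense brains (−1.76 ± 0.67, FDR=0.132). Rpl39, a ribosomal protein gene, had 37.2 to 259 CPM (median 69.1) in antag-305 and 44.5 to 860 CPM (median 168) in antag-missense brains (−1.198 ± 0.490, FDR=0.151). In both, most antag-305 bees lay within the antag-missense range. These medians changed sign with the handling of the length measure. With the length measure as a covariate they turned positive, to 0.255, 0.06, 0.05 and 0.185 for the lists by name and 0.14, 0.14 and 0.67 for those by symbol, in the same order. The covariate fit called 4 of the 19 cytosolic ribosomal protein genes, 1 of the 22 and 1 of the 8 nuclear respiratory genes and 5 of the 11 mitochondrial genes upregulated. Without antag-305 bees 21 to 24 the medians were −0.896, −0.66, −0.70 and −0.835 by name and −0.34, −0.64 and −1.53 by symbol. Downregulated DEGs were then 18 of 19, 18 of 20, 8 of 11 and 18 of 22 genes by name and 2 of 7, 5 of 8 and 10 of 11 by symbol, with 1 proteasome gene upregulated. For that reason no direction is given for these lists.

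The DEGs as a whole also sorted by gene length. Spearman's correlation of log2 fold change with gene span was 0.44 across the 9118 genes, which are not independent replicates and share the same libraries. In the 4 bins of increasing span, the median log2 fold change was −0.17, −0.04, 0.01 and 0.11. Upregulated DEGs numbered 17, 41, 74 and 161 in these bins, and downregulated DEGs 36, 29, 36 and 10. The median span was 13208 bases for upregulated and 3408 bases for downregulated DEGs. After offsets that remove the length trend from each library, 250 genes were upregulated and 96 downregulated, among them 236 of the 293 and 72 of the 111. The counts of chaperones, folding genes of the endoplasmic reticulum, activity-linked genes and amine receptors were the same with these offsets, and 21 of the 35 TFs were upregulated with them. The call for mGlutR1, a metabotropic glutamate receptor (0.28 ± 0.05, FDR=0.000445), was lost with them (0.16, FDR=0.18) and with bees 21 to 24 as the only antag-305 brains (0.28, FDR=0.0759). Other gene lists were short, and with 4.43% of all genes called a count of 0 in them is at the background share and no result about the list. None of 10 nicotinic receptor subunits (median 0.01), 10 synaptic proteins (0.12) or 8 neuropeptides and their receptors (−0.05) was a DEG, and mGlutR1 was the sole DEG among 10 other channels and transmitter receptors (0.04). None of 10 redox enzymes (−0.16), 9 chromatin and DNA methylation genes (−0.01) or 7 immune genes (−0.33) listed by symbol was a DEG. Matched by name within the study's brain DEGs, 1 of 3 antioxidant and redox genes and 1 of 2 immune genes were upregulated. Of 5 histone modification genes matched in this way, 1 was upregulated and 1 downregulated. These counts by name are not independent evidence.

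**Figure D3:**
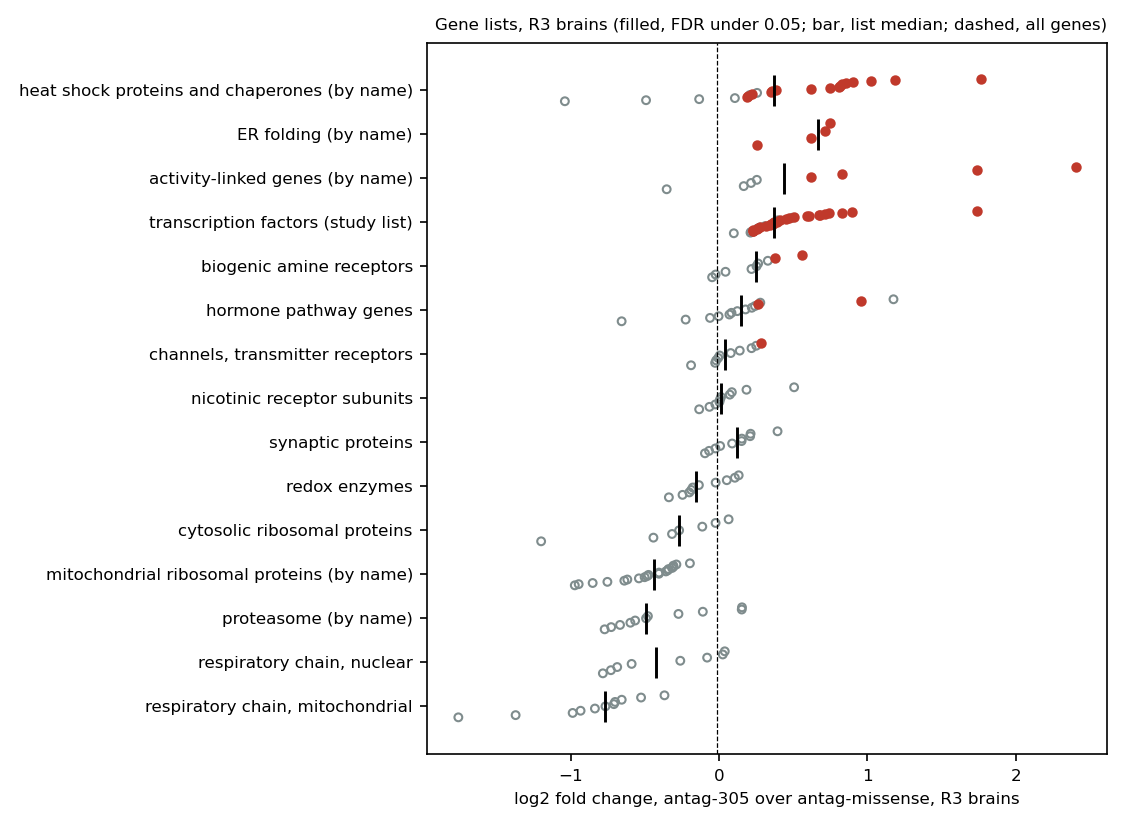
Log2 fold change of antag-305 over antag-missense in R3 brains for every tested member of 15 gene lists. Each circle is a gene (filled, FDR below 0.05), short bars are list medians and the dashed line is the median over all genes tested (−0.01). Filled circles are all above 0 and lie in the upper lists, among them 16 of 22 chaperones, while the ribosomal, proteasome and respiratory lists have medians below 0 with no filled circle, medians that turn positive with the length measure as a covariate.

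Brains of colonies R2 and R42, which share no control libraries with R3, gave each DEG a separate measurement. Fitted alone, R2 (12 antag-305, 11 antag-missense) had 5 DEGs (0.0548%) and R42 (11 and 10) had 9 (0.0987%). The fold changes of the R3 DEGs kept their sign in R2 more often than in R42. Of the 293 upregulated DEGs, 284 (96.9%) were above 0 in R2 and 236 (80.5%) in R42, against 46.3% and 49.9% of all genes tested. An unadjusted P below 0.05 in the same direction was found for 117 of them (39.9%) in R2 and 67 (22.9%) in R42, against 2.30% and 5.64% of all genes. Of the 111 downregulated DEGs, 107 (96.4%) were below 0 in R2 and 77 (69.4%) in R42, and 20 (18.0%) and 19 (17.1%) had such a P, against 1.61% and 5.04% of all genes. A length trend was present in each colony, with median log2 fold changes of the shortest and longest bins of −0.07 and 0.04 in R2 and −0.09 and 0.05 in R42. With the length offsets in each colony the shares above 0 were 95.9% in R2 and 72.7% in R42 for the upregulated DEGs, and the shares below 0 were 90.1% and 65.8% for the downregulated DEGs.

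The named chaperones and activity-linked genes differed in how far they carried over. Hsp90 had log2 fold changes of 0.76 (P=0.00399) in R2 and 0.29 (P=0.242) in R42, fitted alone with edgeR. LOC410620 (Hsp70Ab-like) was higher in both, by 0.95 (P=0.0265) and 1.04 (P=0.000666). HR38 had 1.44 in R2 (P=3.44e-05) and −0.36 in R42 (P=0.161), and egr had 0.90 (P=0.000889) and 0.06 (P=0.802). DopR2 had 0.41 (P=0.00582) in R2 and 0.10 (P=0.446) in R42, and the octopamine receptor beta-3R the other way round, with 0.07 (P=0.466) and 0.38 (P=0.000205).

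**Figure D4:**
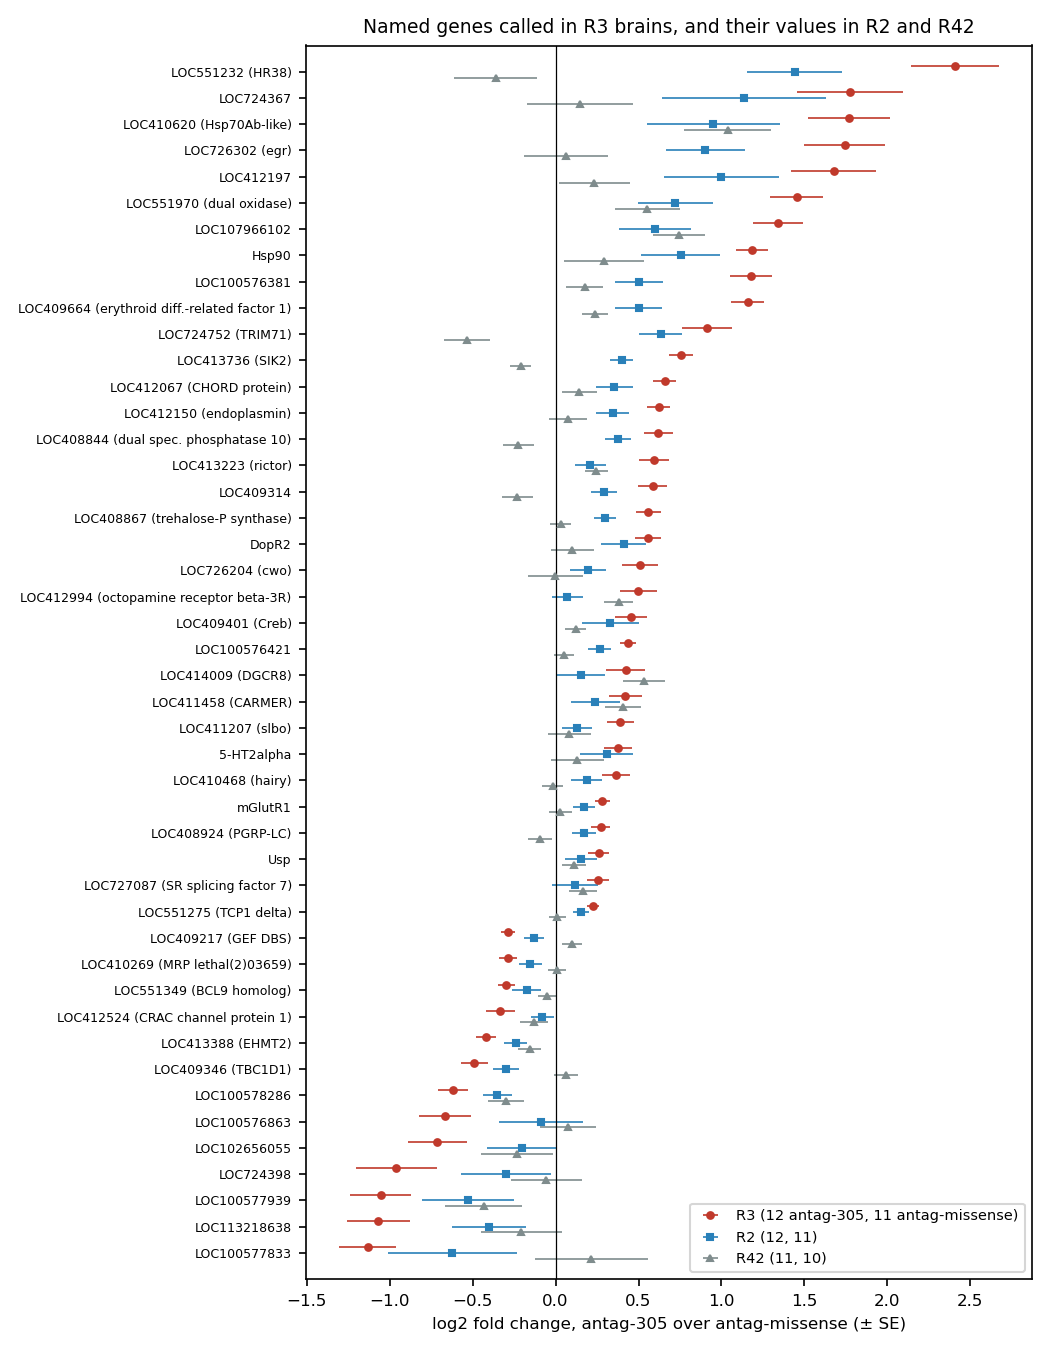
Log2 fold change (± SE) of antag-305 over antag-missense in brains of colonies R3 (circles), R2 (squares) and R42 (triangles), each fitted alone, for named genes that were DEGs in R3. Genes are ordered by their value in R3, which chose them. Most R2 values share the sign of R3, and for LOC551232 (HR38), LOC724752 (TRIM71) and LOC413736 (SIK2) the R42 values are below 0 at −0.36, −0.54 and −0.21.

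The difference between colonies was tested in a joint fit of the brain libraries of all 3 colonies. No gene passed the test for a different response in R3 and R2 (0 of 9118 with edgeR and 0 under each alternative run). An unadjusted edgeR P below 0.05 was found for 237. Of the R3 DEGs, 290 of 293 upregulated and 108 of 111 downregulated had the larger effect in R3. Each colony fitted alone, their medians were 0.43 in R3 and 0.19 in R2, and −0.36 and −0.16. These genes were chosen by their R3 values, which favours larger values there. Between R3 and R42, 44 genes differed (0.483%), 34 with a higher and 10 with a lower log2 fold change in R3. Of these, 30 were upregulated and 3 downregulated DEGs of R3, and 21 of those DEGs had the opposite sign in R42. The smallest P was that of SIK2 (LOC413736), whose log2 fold change was higher in R3 by 0.97 (FDR=1.2e-10), with −0.21 ± 0.06 in R42 alone. The others with the smallest P were TRIM71 (LOC724752, a difference of 1.45, FDR=4.66e-06), HR38 (LOC551232, 2.77, FDR=4.66e-06), DUSP10 (LOC408844, 0.84, FDR=1.07e-05) and LOC409314 (0.82, FDR=3.9e-05). Hsp90 was not among the 44 (a difference of 0.89, FDR=0.217).

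The fat body of the same colony, taken from the same bees, gave few DEGs. Of 8844 genes tested in 12 antag-305 and 11 antag-missense fat bodies of R3, 4 were DEGs (0.0452%), with 310 at an unadjusted P below 0.05 (3.51%). LOC410326 (Krueppel-like factor 10) was upregulated in fat body (0.90, FDR=0.0308) and brain (0.83), as was LOC100576293, which is not named in the sources used here (1.50, FDR=0.00438, and 1.37 in brain). The long noncoding RNA LOC107966102 went in opposite directions, at −0.78 in fat body (FDR=0.00438) and 1.34 in brain. LOC113219267 was downregulated in fat body (−1.38, FDR=0.00308) and missed the threshold in brain (−0.33, FDR=0.0529). Of the 256 upregulated brain DEGs that were tested in fat body, 155 (60.5%) were above 0 there and 17 (6.64%) had an unadjusted P below 0.05 in that direction, against 52.4% and 1.26% of the 8284 genes tested in both tissues. Hsp90 was at −0.49 in fat body (P=0.0127, FDR=0.984).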

How the data were processed

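RNA of single brains and fat bodies was sequenced from stranded mRNA libraries. The authors trimmed adapters, aligned reads to HAv3.1 with STAR 2.7.6a and counted them with featureCounts (Subread 2.0.0). The deposited values are raw counts per gene, 1 file per library, in which each of the 12332 bee features spans the whole gene, introns included, beside 5 virus features. Whether strand was used in counting is not given in the sources used here. Overlaps with genes on the opposite strand are not marked for every gene named. Gene symbols were joined through coordinates of the RefSeq HAv3.1 gene table (12325 of 12332 matched), and descriptions were taken from the study's list of brain DEGs, so that LOC genes outside it are left unnamed.

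Counts were analysed in R 4.3.3. Genes above 1 CPM in at least 32 brain libraries (30 for fat body) were tested with edgeR 4.0.16 (TMM, quasi-likelihood F test, treatment as the term) and Benjamini–Hochberg FDR below 0.05, as in the study's methods. The interaction used 6 colony-by-treatment means, and library measures a two-sided permutation test of 100000 resamples. Alternatives used RLE or upper-quartile factors, other filters, DESeq2 1.42.0, limma 3.58.1 with voom, sva 3.50.0, loess offsets on gene span, bee number as a block, and libraries left out. The script was tested on simulated data. No pair of libraries was a duplicate (121 pairs, lowest chi-square per degree of freedom 7.78).

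Genes were named by rule. It took the 10 DEGs of smallest P per direction and the 5 of largest fold change per direction with a mean of at least 5 CPM. In each list except the marker lists it took the DEG of smallest P per direction, or the member of smallest P where no member was a DEG. It also took genes the study names and the 5 of smallest P among those called for R3 against R42 (R3 against R2 had 0). This gave 72 genes, not all of which are described in the text, and others named are list members. The members and lists were chosen with earlier results of these data known. P-values cover the spread between bees of 1 colony in 1 trial.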

Additional observations from a re-analysis of the deposited data

Results flagged for a closer look

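The antag-305 response of the brain differed between colonies R3 and R42 in 44 genes by the edgeR interaction test. In the 5 genes with the smallest P, the log2 fold change in R3 exceeded that in R42 by 0.97 for LOC413736 (SIK2), 1.45 for LOC724752 (TRIM71), 2.77 for LOC551232 (HR38), 0.84 for LOC408844 (DUSP10) and 0.82 for LOC409314. Each of these genes was upregulated in R3 and had a negative log2 fold change in R42, at −0.21, −0.54, −0.36, −0.23 and −0.23. Each colony was a trial of its own, so this difference belongs to either.

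In counts outside the bee genes, antag-305 bee 23 of R3 had a viral share of 0.0224%, above the share that a count of 0 allows at its depth and above the highest antag-missense library kept in R3 (0.00277% in bee 22). With a viral limit of 0.05% in place of 0.5% the same 23 libraries were kept, this one among them.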

How the results depend on the processing

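Of the 47 named DEGs, 18 passed the threshold under every alternative run, 29 lost the call under at least 1, and none reversed. The 404 DEGs (293 up, 111 down) numbered 410 with RLE and 407 with upper-quartile factors. DESeq2 called 399 up and 225 down (624), limma-voom 181 down, 2 surrogate variables 189 down. Leaving out single libraries gave 225 to 359 up, 72 to 211 down and 300 to 570 in all. Alternatives chosen after seeing the data gave 73 down without antag-missense bees 13 and 15, 1239 up and 1583 down (2822) without antag-305 bees 21 to 24, and 73 up and 7 down (80) without antag-305 bees 13 to 20. The length measure as covariate gave 239 up and 151 down, 209 of the 404 among them. The cause of these shifts was not tested. The R3 against R42 count of 44 became 226 with limma-voom and 80 with DESeq2, and 34 to 56 without single R3 libraries, and R3 against R2 remained at 0 to 0. The fat body count of 4 became 16 with DESeq2 and 3 to 6 without single libraries. In the main fits libraries were left out on viral share alone, and no limit on depth was set.

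Bee numbers recur in both groups. Deviations of same-numbered bees correlated at −0.63 to 0.37 (median 0.02, 11 pairs), 3 above 0.1, and no bee correlated best with its own number, so the numbers do not pair the bees. With bee number as a replicate block, 132 were up and 16 down (148, 146 of them among the 404), and with length offsets added 128 and 21 (149). The block gave 20 genes for R3 against R42 and 0 in fat body.

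Depth limits genes of low level: LOC102655676 had at most 21 counts in any antag-305 and 20 in any antag-missense brain.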

Other observations

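Several genes outside the naming rule were looked at after their values had been seen. LOC408923 (Taf4, a subunit of the general transcription factor TFIID) had 85.9 to 145 CPM (median 128) in antag-305 brains of R3, against 57.4 to 91.5 CPM (median 69.7) in antag-missense brains, a log2 fold change of 0.72 ± 0.09 (edgeR, FDR=3.22e-05). It was also a DEG in R42 fitted alone (0.46 ± 0.09, FDR=0.0444), and in R2 it was at 0.37 ± 0.13 (FDR=0.884). It shares its start with the end of the neighbouring gene for peptidoglycan-recognition protein LC on the same strand. LOC100576293, upregulated in brain and fat body of R3, was at 0.05 in R2 and −0.09 in R42 brains. Kakusei, a noncoding RNA found as an activity marker in the honey bee brain, was not a DEG in R3. It had 1.47 to 5.04 CPM (median 3.90) in antag-305 and 1.16 to 4.40 CPM (median 2.34) in antag-missense brains (0.41 ± 0.23, FDR=0.247).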
